A study of Mus musculus with 14 samples.

Results

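Dendritic cells that had received the inhibitor CLIK148 and then CpG were compared with dendritic cells that had received the inhibitor CA074Me and then TNF. The labels put 2 arrays in each of these groups, 1 from each of 2 independent experiments, so the comparison uses 4 of the 14 arrays of the series. The arrays were assigned by their titles, not by measured values, and paired by experiment. The cells were grown from BALB/c mouse bone marrow for 8 days in recombinant GM-CSF, with feedings on days 3 and 6. Every culture was then held for 1 h with 5 µM inhibitor or with the solvent alone (DMSO, 0.01%), which all groups carried. CpG followed at 25 µg/mL or TNF at 500 U/mL. The other 10 arrays hold solvent, CLIK148 or CA074Me without a stimulus, and solvent with CpG or with TNF, again 2 arrays each. Neither CLIK148 with TNF nor CA074Me with CpG was among the 7 groups. Inhibitor and stimulus therefore both differ between the groups compared, and their shares cannot be told apart in these 4 arrays. How long the stimuli acted before RNA was taken was not given in the sources used here.

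Cathepsins B and L are lysosomal cysteine proteases that cut proteins in endosomes and lysosomes, among them antigens and the nucleic acid-sensing receptor TLR9. CLIK148 is used as an inhibitor of cathepsin L and CA074Me as an inhibitor of cathepsin B, although CA074Me is known to act on other cysteine cathepsins inside living cells. CpG oligonucleotides are read by TLR9 through MyD88, which switches on NF-kB, interferon regulatory factors and cytokines such as IL-12 that favour Th1 responses. TNF acts through its own receptors, also on NF-kB, and matures dendritic cells with little IL-12. The series set these conditions side by side to ask how cathepsin inhibitors alter the Th1- and Th2-associated signals of dendritic cells.

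The values are log2 expression levels, 1 per gene and array, over 12172 tested genes. Array medians lay between 7.48 and 7.54 over the 14 arrays. The first principal component carried 54.4% of the variance, and on it the CpG arrays of experiment 1 stood apart, the CLIK148 array at 40.86 and the solvent array at 44.33, against 15.51 for the next array. The CpG arrays of experiment 2 lay at −1.53 and −4.6, with the CA074Me and TNF array of that experiment between them at −3.28. On this component the groups compared were thus far apart in experiment 1, 40.86 against 13.92, and close together in experiment 2. The values or differences of each experiment are therefore given below for the genes and lists described most closely. The 2 replicate arrays correlated across genes at 0.967 for CLIK148 with CpG and at 0.981 for CA074Me with TNF.

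Markers of conventional dendritic cells were present on all 4 arrays. Of 15 listed, 14 had a probe set, only Xcr1 lay below the overall median of 7.52 on all 4 arrays, and the mean level over the list was 10.02 and 10.21 with CLIK148 and CpG and 10.14 and 10.35 with CA074Me and TNF in experiments 1 and 2. Macrophage markers averaged 10.51 and 10.18 against 10.42 and 10.2, with Cd163 and Vsig4 below the overall median. Granulocyte markers averaged 11.64 and 11.34 against 11.75 and 11.23, with none of 18 below it and S100a9 at 14.81 or more. Lymphocyte and plasmacytoid markers averaged 8.53 and 8.53 against 8.34 and 8.51, with Cd3g, Cd79a, Ncr1 and Nkg7 below it. In that list Bst2 stood at 12.29 or more, and Ighm at 11.31 and 12.48 against 10.55 and 12.19. Erythroid and stromal markers averaged 7.35 and 7.53 against 7.35 and 7.51, with 8 of 12 below it. The cultures thus held granulocyte and macrophage transcripts, and those of Ighm and Bst2, beside those of dendritic cells. The part of these other transcripts in the differences below was not tested. In such mixed cultures fewer cells of a type and less RNA per cell cannot be told apart.

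Between the 2 conditions 40 genes differed at an adjusted p under 0.05, which is 0.329% of those tested (limma, moderated test with the experiment as a block, Benjamini-Hochberg over all 12172 genes). Of these, 17 were higher with CLIK148 and CpG (0.14% of genes tested) and 23 were higher with CA074Me and TNF (0.189%). All 40 differed in the same direction in both experiments. The test itself favours such agreement, because disagreement between the experiments enters its error, so this is not a separate check. The sizes ran from 0.39 to 3.13 on the log2 scale, and 6 genes differed at least 2-fold. In 35 of the 40 the 2 arrays of one group lay entirely above those of the other, as they did for 29.1% of all genes. The count depends on the block and on every array: without the block 1 gene, Siah2, was called, and leaving out any 1 of the 4 arrays left between 0 and 8. Fitting only the 4 arrays compared, with the block kept, called 0 genes, so the 40 calls rest on an error estimated over all 14 arrays. Scaling to 4 reference genes left 14, which no longer included Gm6377, Zc3h12a, Flt3 or Cav1.

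**Figure D1:**
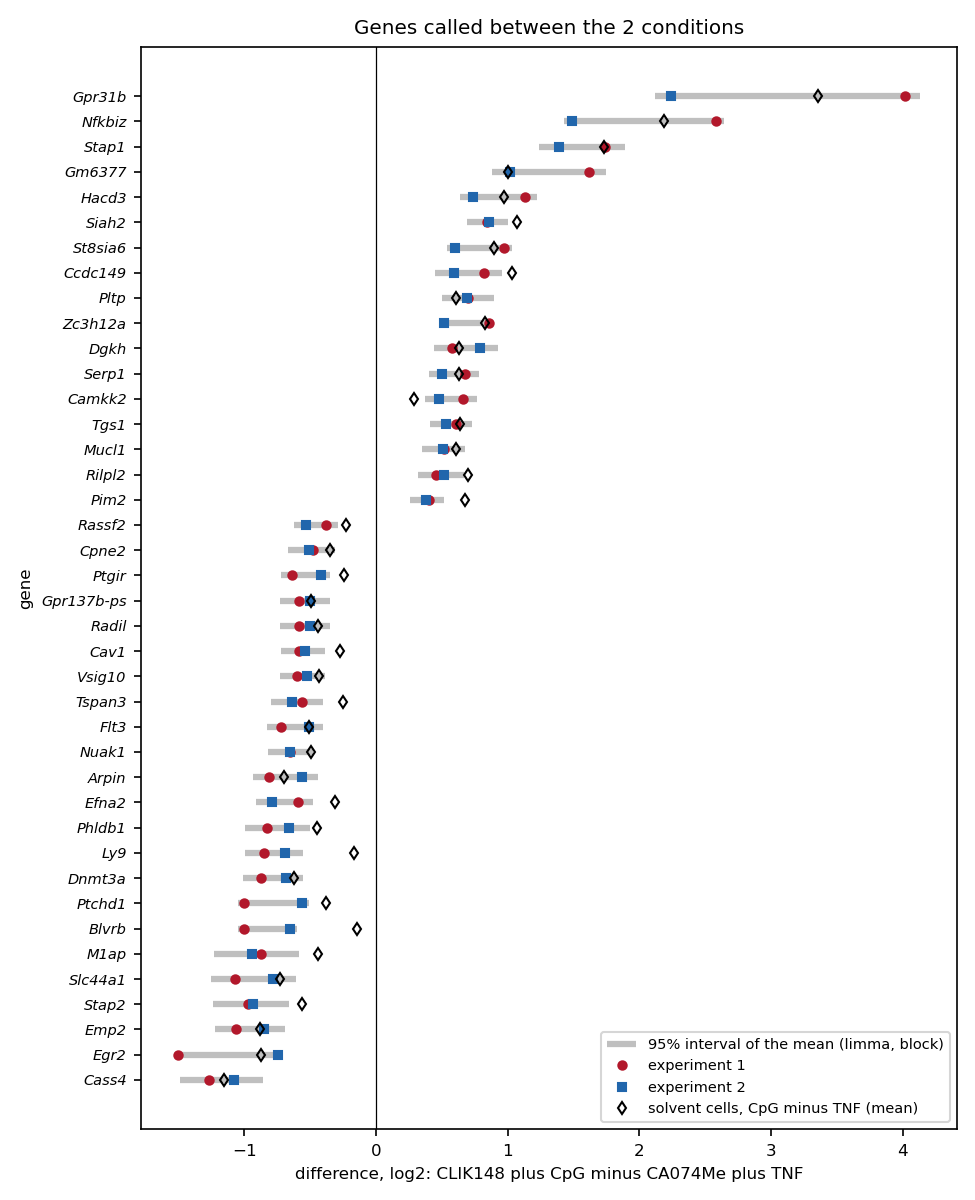
The difference between CLIK148 with CpG and CA074Me with TNF (x axis, log2) for each of the 40 called genes (y axis): circles are experiment 1, squares experiment 2, grey bars the 95% interval of the mean, and diamonds the mean CpG minus TNF difference of solvent-treated cells. For each gene the circle and the square lie on the same side of 0, from 4.02 and 2.24 for Gpr31b to −1.27 and −1.08 for Cass4.

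The largest differences among called genes were in a receptor and 2 signalling genes. Gpr31b, a G protein-coupled receptor, stood at 11.27 and 10.29 with CLIK148 and CpG and at 7.25 and 8.05 with CA074Me and TNF in experiments 1 and 2. Its groups do not overlap, and the CA074Me array of experiment 1 is below the overall median of 7.52, in the range of dim genes. The difference was 3.13 ± 0.44 (SE, n = 2 a group; limma adjusted p = 0.0369), and no fold is given against a level in that range. In solvent cells without a stimulus Gpr31b stood at 7.3 and 7.71, so the high arrays are those with CpG.

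Nfkbiz encodes IκBζ, a nuclear member of the IκB family that CpG-type signals induce and that helps switch on later cytokine genes. It stood at 14.16 and 13.4 with CLIK148 and CpG and at 11.58 and 11.91 with CA074Me and TNF, against 11.2 and 11.39 in unstimulated solvent cells. The CpG arrays are high in both experiments and the TNF arrays are close to the unstimulated solvent ones. CA074Me without a stimulus stood lower, at 10.84 and 11.19, so the TNF arrays are above that level in both experiments. The difference was 2.03 ± 0.27 (SE; 4.09-fold; limma adjusted p = 0.0328), and it missed the threshold when all probe sets of the gene were averaged.

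Stap1, an adaptor protein with SH2 and PH domains, stood at 12.01 and 12.55 against 10.26 and 11.16. Experiment 2 is higher than experiment 1 in both groups, and the distance between the groups is alike, 1.74 and 1.39. The difference was 1.56 ± 0.14 (SE; 2.96-fold; limma adjusted p = 0.00986). Siah2, a ubiquitin ligase, gave the smallest adjusted p of the comparison, 0.00795 by limma. Its levels were 10.45 and 10.59 against 9.62 and 9.74, a difference of 0.85 ± 0.07 (SE; 1.8-fold) that was 0.84 in experiment 1 and 0.86 in experiment 2. In unstimulated solvent cells Siah2 stood at 9.67 and 9.57, beside the TNF arrays.

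Zc3h12a encodes Regnase-1, an endonuclease that degrades cytokine mRNAs. It stood at 9.91 and 9.84 with CLIK148 and CpG and at 9.05 and 9.32 with CA074Me and TNF, a difference of 0.69 ± 0.09 (SE; limma adjusted p = 0.0328). Gm6377, a predicted gene whose probe set can also bind related transcripts, stood at 10.33 and 10.14 against 8.71 and 9.13, a difference of 1.32 ± 0.19 (SE; 2.49-fold; limma adjusted p = 0.0382). These groups do not overlap either. The other called genes on this side include the fatty acid elongation enzyme Hacd3 (0.93 higher), the sialyltransferase St8sia6 (0.79), Ccdc149 (0.7), the phospholipid transfer protein Pltp (0.7), the endoplasmic reticulum protein Serp1 (0.59), the kinase kinase Camkk2 (0.57), the RNA cap methyltransferase Tgs1 (0.57) and Rilpl2 (0.49). Dgkh (0.69), Mucl1 (0.52) and the kinase Pim2 (0.39) were called with overlapping groups, because their levels differed between the experiments. Mucl1, for example, stood at 12.16 and 9.1 with CLIK148 and CpG and at 11.64 and 8.59 with CA074Me and TNF.

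Among the genes higher with CA074Me and TNF, Cass4 and Egr2 differed at least 2-fold. Cass4, a scaffold protein of focal adhesions, stood at 8.43 and 8.62 with CLIK148 and CpG and at 9.7 and 9.69 with CA074Me and TNF. Unstimulated solvent cells stood at 9.73 and 9.98, so the arrays that depart from them are those with CpG. The difference was −1.17 ± 0.14 (SE; 2.26-fold; limma adjusted p = 0.0328). Egr2, a zinc finger transcription factor of the early response, stood at 10.71 and 9.82 against 12.22 and 10.56. Its groups overlap across experiments because experiment 1 is higher in both groups, and within each experiment the TNF array is the higher. The difference was −1.12 ± 0.16 (SE; 2.18-fold; limma adjusted p = 0.0382), −1.5 in experiment 1 and −0.74 in experiment 2.

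Emp2, a small membrane protein, followed the pattern of Cass4, with 9.67 and 10.32 against 10.74 and 11.17 and an unstimulated solvent level of 10.53 and 10.83. Dnmt3a, a DNA methyltransferase that sets new methylation, stood at 9.73 and 9.69 against 10.61 and 10.37, with 10.39 and 10.09 unstimulated. In both genes the CpG arrays are the ones below the unstimulated solvent level. Against the same inhibitor alone, Dnmt3a departed on both sides. It was lower with CpG than with CLIK148 alone (10.18 and 10.06) and higher with TNF than with CA074Me alone (10.07 and 9.91). Stap2, an adaptor related to Stap1, had the other arrangement against solvent cells. It stood at 9.79 and 9.79 with CLIK148 and CpG, 10.76 and 10.72 with CA074Me and TNF, and 9.81 and 9.59 unstimulated. Arpin, an inhibitor of the Arp2/3 actin nucleator, stood at 9.03 and 9.58 against 9.84 and 10.14, with 8.95 and 9.25 unstimulated. In Stap2 the TNF arrays are the ones above the unstimulated level, and in Arpin they are the higher of the stimulated arrays within each experiment. The differences were −0.96 for Emp2, −0.78 for Dnmt3a, −0.95 for Stap2 and −0.69 for Arpin and the groups overlap in none of these 4 genes.

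Flt3, the receptor for a growth factor of dendritic cells and the only called gene among 13 tested dendritic cell markers, stood at 8.28 and 8.48 against 9 and 8.99, a difference of −0.61 ± 0.09 (SE; limma adjusted p = 0.0445). Unstimulated solvent cells stood between the groups, at 8.52 and 8.61. The dendritic cell marker list as a whole had a median difference of −0.12, with 9 of 13 below 0, beside −0.05 for all genes, of which only 34.9% lay above 0. Ly9, a SLAM family receptor of leukocytes, stood at 9.58 and 9.44 against 10.43 and 10.13, a difference of −0.77 ± 0.1 (SE; limma adjusted p = 0.0328). Cav1, the caveola protein caveolin, stood at 9 and 9.26 against 9.58 and 9.8, a difference of −0.56 ± 0.07 (SE; limma adjusted p = 0.0328). In all 3 genes the TNF arrays are the higher and the groups do not overlap. The other called genes on this side include the choline transporter Slc44a1 (−0.93), M1ap (−0.91), Ptchd1 (−0.78), Phldb1 (−0.74), the ephrin ligand Efna2 (−0.69), the kinase Nuak1 (−0.65) and the tetraspanin Tspan3 (−0.6).

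Solvent-treated cells received the same 2 stimuli without an inhibitor, on arrays that the comparison does not use, and their CpG minus TNF difference serves as a reference. There 53 genes passed the same limma test, 0.435% of those tested, 42 higher with CpG (0.345%) and 11 higher with TNF (0.0904%). This count rests on the fit: it was 1 without the block, 0 when only these 4 arrays were fitted and 2 with array weights. It was 1211 (527 higher with CpG, 684 lower) without the CpG array of experiment 2, and 1 to 3 without any of the other 3 arrays. The overlaps that follow hold for the count of 53 alone. All 40 genes called with the inhibitors had a solvent difference of the same sign, and 19 of them were called in solvent cells too, which is 47.5% of the first list and 35.8% of the second. The share of all genes with agreeing signs is not given here, but the 2 mean differences correlated at 0.834 over all genes. The 2 tests also use the same error estimate for each gene. A gene with a small error is therefore more easily called in both, and the overlap is given as a description. By direction, 14 of the 17 genes higher with CLIK148 and CpG were called in both, and 5 of the 23 lower ones. Across all genes the differences with and without inhibitors correlated at 0.901 in experiment 1 and at 0.414 in experiment 2. Within an experiment both differences come from the same run, and genes are not independent replicates. Taking the inhibitor difference from experiment 1 and the solvent difference from experiment 2 gave 0.441, and the opposite choice gave 0.409.

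The difference with inhibitors was then tested against the difference in solvent cells. No gene passed (limma, smallest adjusted p = 0.897; 387 genes at an unadjusted p under 0.05), and this held under every alternative run. The 95% interval of this departure had a median half-width of 0.287, before any adjustment. The adjusted test needs larger departures than that, so the absence of a passing gene does not exclude departures above this size. For Nfkbiz the departure was −0.16 (95% interval −1.02 to 0.7), for Stap1 −0.17 (−0.62 to 0.29), for Siah2 −0.23 (−0.45 to −0.01) and for Cass4 −0.03 (−0.47 to 0.42). These 4 genes therefore differed by about as much in solvent cells, where their CpG minus TNF differences were 2.19, 1.73, 1.07 and −1.15, but only for Stap1, Siah2 and Cass4 does the interval exclude a departure of 1 log2 unit. The interval of Siah2 leaves out 0 before adjustment, and its adjusted p was 1.

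**Figure D2:**
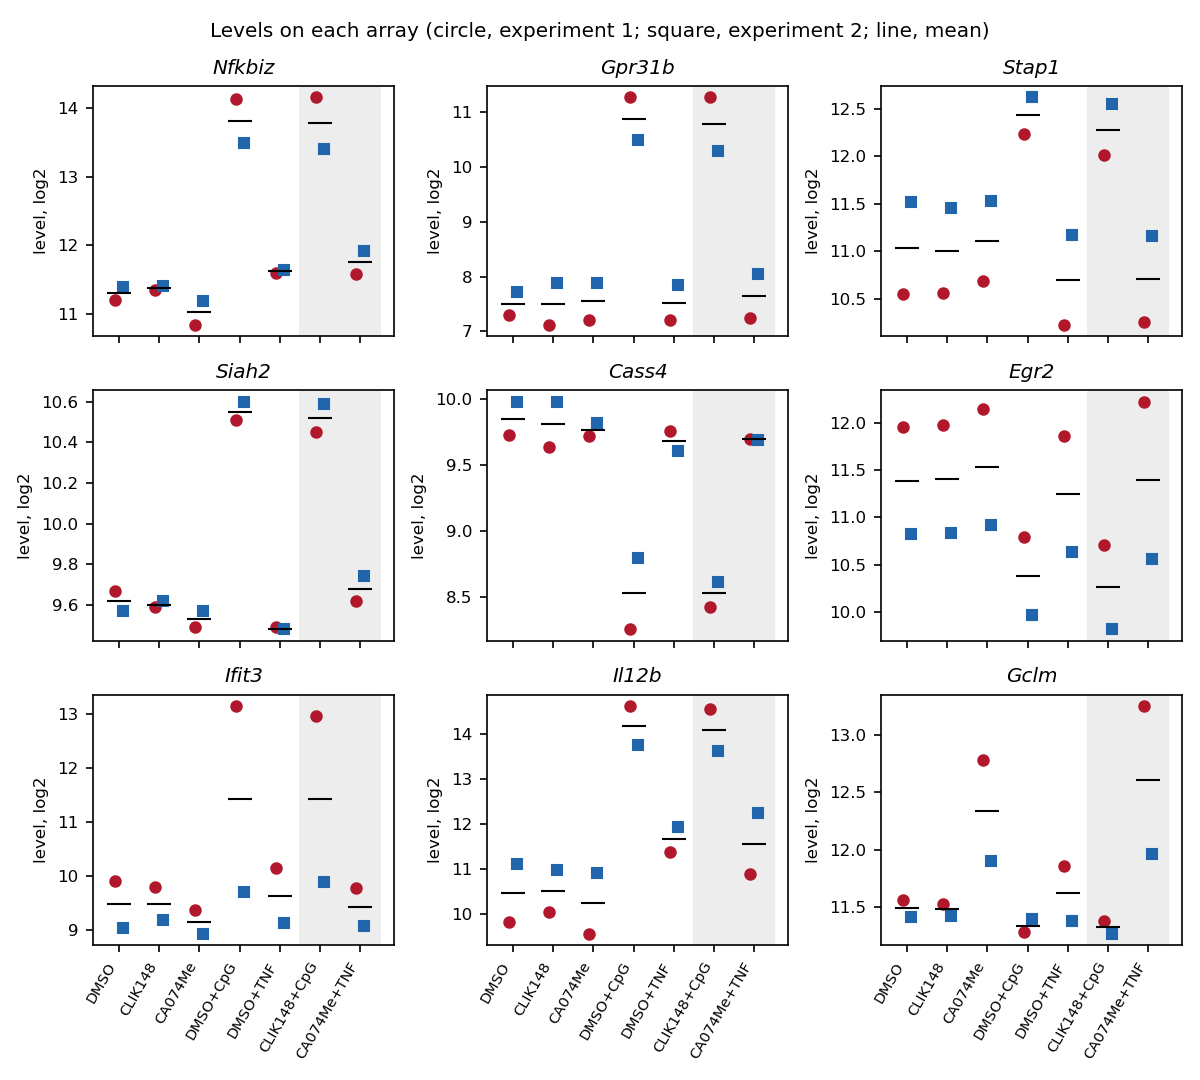
Levels (y axes, log2) of 9 genes on each of the 14 arrays, by group (x axes); circles are experiment 1, squares experiment 2, lines group means, and the grey band marks the groups compared. Nfkbiz, Gpr31b, Stap1, Siah2 and Il12b are high on the 4 arrays with CpG, Cass4 is low on them, Egr2 is low on them within each experiment, Ifit3 is high on the CpG arrays of experiment 1, and Gclm is highest on the arrays with CA074Me.

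Among genes that were called, Blvrb and Ly9 had solvent differences far from those with inhibitors. Blvrb, a biliverdin reductase of heme breakdown, stood at 12.02 and 11.37 with CLIK148 and CpG and at 13.02 and 12.03 with CA074Me and TNF. Solvent cells stood at 11.92 and 11.35 with CpG and at 12.21 and 11.35 with TNF. The arrays with CA074Me are the high ones in each experiment: without a stimulus they stood at 12.57 and 11.69, against 11.94 and 11.25 with CLIK148. The difference with inhibitors was −0.83 ± 0.1 (SE; limma adjusted p = 0.0328), the solvent difference −0.14, and the departure −0.68 (95% interval −1 to −0.36). For Ly9 the same values were −0.77, −0.17 and −0.6 (−0.91 to −0.29). Neither departure passed adjustment (limma adjusted p = 1), and since both genes were called on one term of it, it is given as a description.

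The smallest p value for a departure belonged to Cxcl5, a chemokine that attracts neutrophils. It stood at 7.93 and 9.35 with CLIK148 and CpG and at 8.45 and 9.92 with CA074Me and TNF. The TNF array is the higher within each experiment, while the experiments themselves lie further apart than the groups. The difference was −0.54 ± 0.09 (SE; limma adjusted p = 0.054) where the solvent difference was 0.31, a departure of −0.85 (95% interval −1.15 to −0.56; limma adjusted p = 0.897). CA074Me with TNF stood 1.05 above solvent with TNF, and Cxcl5 was the only gene that passed in that comparison (limma adjusted p = 0.0142; 0.00822% of genes tested), and it did not pass without the block (limma adjusted p = 1). CLIK148 with CpG stood 0.19 above solvent with CpG, where no gene passed (limma; 226 at an unadjusted p under 0.05). Both of these comparisons share arrays with the main one.

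Lrp8, a lipoprotein receptor, and Sqstm1, the autophagy receptor p62, came next, with departures of −0.61 (95% interval −0.83 to −0.39) and −0.61 (−0.84 to −0.38), both at a limma adjusted p of 0.897. In the positive direction the smallest p values were those of Egr3 with a departure of 0.53, Pou4f1 with 0.5 and Mettl14 with 0.3, each at a limma adjusted p of 1. Egr3, related to Egr2, stood at 9.35 and 9.26 against 9.08 and 8.85, the opposite order to Egr2, and was not called (0.34 ± 0.08, SE; limma adjusted p = 0.149).

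CLIK148 and CA074Me without a stimulus gave the other reference, again on arrays the comparison does not use. No gene passed between them (limma, smallest adjusted p = 1; 287 at an unadjusted p under 0.05), although 168 did when these 4 arrays were fitted alone. Testing the main difference against this one also gave no gene (limma, smallest adjusted p = 0.0952; 768 at an unadjusted p under 0.05), except Stap1 when arrays were weighted by their quality. Cav1 was the only negative one of the 3 genes at that smallest adjusted p: without a stimulus it was 0.27 higher with CLIK148, and with stimuli it was 0.56 higher on the CA074Me side, a change of −0.83. Stap1 and Siah2, at the same adjusted p, changed by 1.66 and 0.78. Ccnd1, the cell cycle gene cyclin D1, stood at 10.43 and 10.83 against 11.02 and 11.6 and changed by −1.2 (limma adjusted p = 0.249).

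The oxidative stress list, which holds targets of the transcription factor NRF2, had differences below 0, on the side of CA074Me and TNF, for 21 of 24 tested genes, and none was called. Its median difference was −0.3, −0.48 in experiment 1 and −0.17 in experiment 2, beside −0.05 for all genes (34.9% above 0), −0.06 and −0.03 in the 2 experiments. In 18 of the 24 the difference was below 0 in both experiments, and in 10 the groups did not overlap in that direction, where 19.8% of all genes were also lower without overlap. The smallest limma adjusted p in the list was 0.0664, for Gsr. The median lay between −0.46 and −0.2 over the alternatives.

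The largest size in the list was that of Gclm, followed by Srxn1. Gclm, the modifier subunit of the enzyme that makes the glutathione precursor, stood at 11.38 and 11.27 with CLIK148 and CpG and at 13.25 and 11.96 with CA074Me and TNF. Both CA074Me arrays are above both CLIK148 arrays, and that of experiment 1 stands well above the rest. The difference was −1.28 ± 0.3 (SE; limma adjusted p = 0.129). Solvent cells stood at 11.28 and 11.4 with CpG and at 11.86 and 11.38 with TNF, a difference of −0.28, and the departure was −1 (95% interval −1.95 to −0.05; limma adjusted p = 1). Gclc, the catalytic subunit, stood at 9.25 and 9.34 against 10.56 and 9.61, and Slc7a11, the cystine importer, at 10.73 and 9.75 against 11.58 and 10.45. Their differences were −0.79 and −0.78, neither called.

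Srxn1, which repairs oxidised peroxiredoxins, stood at 9.89 and 9.58 against 11.73 and 10.27, a difference of −1.26 ± 0.3 (SE; limma adjusted p = 0.138). Txnrd1, thioredoxin reductase, stood at 12.74 and 12.44 against 13.64 and 12.79, and Gsr, glutathione reductase, at 11.09 and 11.21 against 11.96 and 11.63. The CA074Me array is the higher in both experiments for each of these genes. Gsr had the tightest estimate, −0.65 ± 0.12 (SE). Nqo1, a quinone reductase, differed by −0.93, Hmox1, which opens the heme ring, by −0.71, and the efflux pump Abcc1 by −0.62, none of them called. The list's sensor and regulator genes did not share this order: Nfe2l2, which encodes NRF2, differed by 0.19 and Keap1, its inhibitor, by 0.27.

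Set against the references, the list's median was −0.05 for CpG minus TNF in solvent cells and −0.22 for CLIK148 minus CA074Me without a stimulus. The medians of all genes there were −0.03 and 0.01. CA074Me with TNF against solvent with TNF gave a median of 0.25, with 22 of 24 above 0, and CLIK148 with CpG against solvent with CpG gave −0.03, with 7 of 24 above 0. For Gclm these 2 values were 0.98 and −0.02, for Srxn1 1.16 and −0.01, for Hmox1 0.9 and 0. The last 2 comparisons share arrays with the main one, so they are its parts and not further evidence. Their median and share above 0 over all genes are not given here, so the counts of 22 and 7 have no reference beside them. No member was called in any of these comparisons by limma. Lipa, the lysosomal acid lipase, which is in the lysosome list, had values of the same order: 11.67 and 11.15 against 12.82 and 11.5, a difference of −0.75 ± 0.19 (SE; limma adjusted p = 0.146), with −0.06 in solvent cells, −0.63 without a stimulus and 0.69 for CA074Me with TNF over solvent with TNF.

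**Figure D3:**
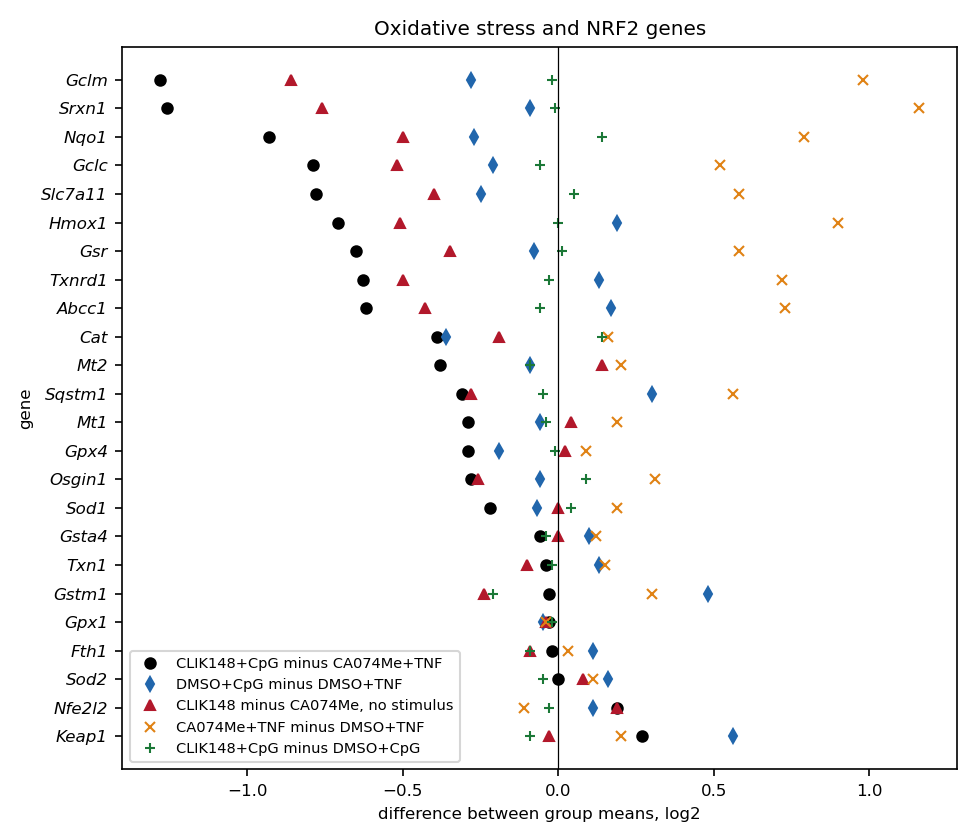
Differences between group means (x axis, log2) for the 24 tested genes of the oxidative stress and NRF2 list (y axis), in the main comparison (circles), in solvent cells (diamonds), without a stimulus (triangles) and for each inhibitor against solvent under its stimulus (crosses and plus signs). Circles reach −1.28 at Gclm and crosses 1.16 at Srxn1, while plus signs stay between −0.21 and 0.14.

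The difference of type I interferon-induced genes lay above 0, on the side of CLIK148 and CpG, for all 31 tested members, and none was called. The median difference was 0.99, but 1.71 in experiment 1 and 0.32 in experiment 2. All 31 differed at least 2-fold in experiment 1, from 1.08 to 3.53, and none did in experiment 2, where the values ran from −0.02 to 0.98. In 19 members the groups did not overlap, where 9.23% of all genes were higher without overlap. Limma adjusted p values ran from 0.254 to 0.492. In solvent cells the median was 1.08, and over the alternatives it lay between 0.48 and 1.53 for the cells with inhibitors.

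Isg20, an exonuclease that degrades viral RNA, had the largest mean difference of the list. It stood at 13.47 and 11.01 with CLIK148 and CpG and at 9.93 and 10.29 with CA074Me and TNF, a difference of 2.13 ± 0.84 (SE; limma adjusted p = 0.345). Ifit3, an antiviral protein with tetratricopeptide repeats, stood at 12.97 and 9.88 against 9.78 and 9.07, a difference of 2 ± 0.73 (SE; limma adjusted p = 0.309). Irf7, the transcription factor that amplifies interferon production, stood at 11.84 and 10.02 against 9.65 and 9.46, a difference of 1.37 ± 0.5 (SE; limma adjusted p = 0.309). In all 3 the CpG array of experiment 1 is far above the other 3 arrays, and that of experiment 2 is nearest to them but still the second highest. The 9 tested interferon-inducible GTPases, which attack the vacuoles of intracellular microbes, had a median of 1, with 1.7 in experiment 1 and 0.3 in experiment 2. Iigp1 among them stood at 11.24 and 8.27 against 8.16 and 7.75, and Gbp6 at 11.76 and 8.97 against 9.18 and 8.73, with limma adjusted p values of 0.384 and 0.432. Ifnb1, which encodes interferon beta, stood at 8.07 and 7.6 against 7.49 and 7.52, a difference of 0.34 that was not called (limma adjusted p = 0.4). Except for the CpG array of experiment 1, these levels are close to the overall median of 7.52.

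The 250 bases before the RefSeq gene start of these 3 interferon genes and of Il6, described next, are shown because they carry a letter match to 1 of 3 searched motifs, in capitals. The motifs were the interferon-stimulated response element (GAAA, any 2 bases, GAAA), the kB site (GGGA, any 2 bases, TTCC) and the antioxidant response element (TGAC, any 3 bases, GC), each searched on both strands. The sequences are those of the RefSeq reference GRCm38.p6, written 5′ to 3′ on the gene's strand. Ifit3 lies at chr19:34583279-34583528 on the plus strand and holds the interferon element at 2 places, whose first letters are 156 and 122 bases before the start. Isg20 lies at chr7:78913515-78913764 on the plus strand and holds a kB site 109 bases before the start. Il6 lies at chr5:30012864-30013113 on the plus strand and holds a kB site 44 bases before the start. Irf7 lies at chr7:141266425-141266674 on the minus strand and holds the antioxidant element 245 bases before the start.
Ifit3: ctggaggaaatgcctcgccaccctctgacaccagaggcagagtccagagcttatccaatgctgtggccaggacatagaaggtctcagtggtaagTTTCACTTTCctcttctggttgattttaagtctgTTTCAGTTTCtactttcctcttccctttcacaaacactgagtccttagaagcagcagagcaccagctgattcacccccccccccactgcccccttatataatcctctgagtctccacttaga
Isg20: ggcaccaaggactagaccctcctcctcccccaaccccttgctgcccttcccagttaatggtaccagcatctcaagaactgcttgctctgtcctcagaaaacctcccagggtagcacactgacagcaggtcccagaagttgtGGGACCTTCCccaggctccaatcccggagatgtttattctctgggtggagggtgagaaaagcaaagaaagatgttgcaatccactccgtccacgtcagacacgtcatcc
Il6: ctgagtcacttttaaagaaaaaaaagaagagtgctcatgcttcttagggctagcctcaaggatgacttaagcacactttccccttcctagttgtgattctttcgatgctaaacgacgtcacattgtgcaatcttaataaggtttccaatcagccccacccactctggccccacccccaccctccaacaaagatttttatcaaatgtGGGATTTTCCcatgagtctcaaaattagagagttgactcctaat
Irf7: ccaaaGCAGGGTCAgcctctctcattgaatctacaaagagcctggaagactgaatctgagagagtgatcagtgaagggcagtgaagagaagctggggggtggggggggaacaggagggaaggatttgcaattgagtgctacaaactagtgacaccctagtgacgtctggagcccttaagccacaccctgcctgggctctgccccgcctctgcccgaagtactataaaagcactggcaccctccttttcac
Among all 32851 RefSeq windows of this length, 2.98% held the interferon element, 1.21% the kB site and 10.2% the antioxidant element. Of 103 genes named by the rule for this comparison, 80 had a window, and 7, 4 and 9 of these held the 3 motifs in that order. These counts are of genes with a match in any of their windows, and some genes have several. The percentages are of single windows, so the 2 cannot be compared directly. A match is a description of the letters and not evidence that a factor binds there.

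**Figure D4:**
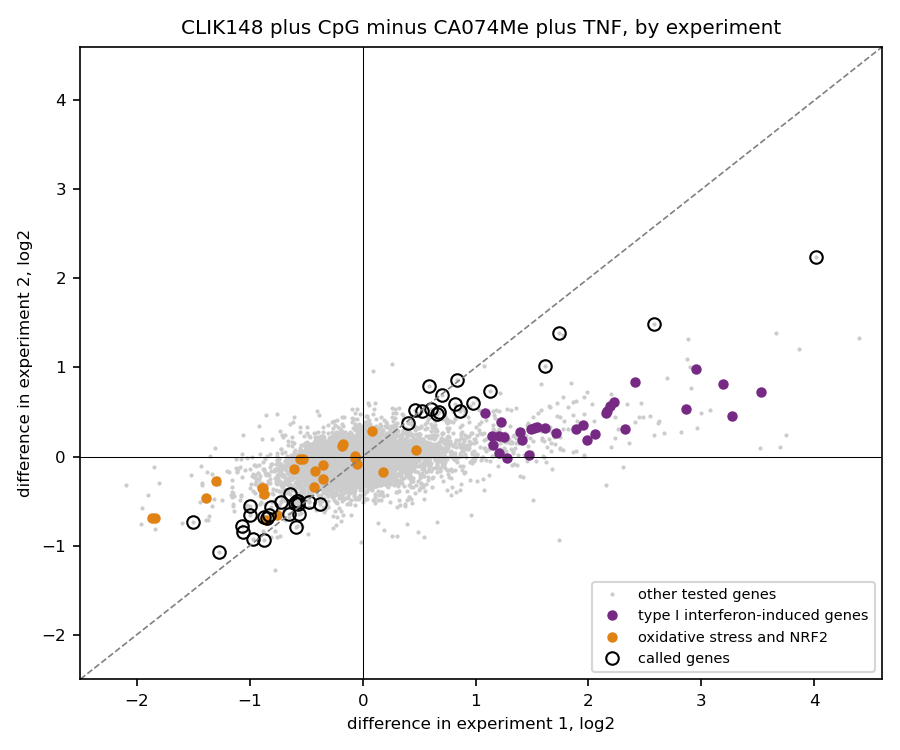
The difference between CLIK148 with CpG and CA074Me with TNF in experiment 1 (x axis, log2) and experiment 2 (y axis, log2) for the 12172 tested genes; rings are the 40 called genes, filled points the interferon and NRF2 lists, and the dashed line marks equal differences. Interferon-induced genes lie far to the right, from 1.08 to 3.53, and between −0.02 and 0.98 in height, while called genes lie closer to the dashed line.

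The 2 experiments differed in the size of the whole comparison. The standard deviation of the differences over all genes was 0.375 in experiment 1 and 0.163 in experiment 2, and the experiments correlated at 0.443 across genes. At least 2-fold differences numbered 233 higher and 64 lower in experiment 1 and 13 higher and 2 lower in experiment 2. In both experiments at once, 12 genes were at least 2-fold higher (0.0986% of those tested) and 1, Cass4, at least 2-fold lower (0.00822%). Of these 12, 4 were called: Gpr31b, Nfkbiz, Stap1 and Gm6377. Il12b was among the other 8. Of the called genes 32 had the larger difference in experiment 1, and their median size was 0.82 there and 0.65 in experiment 2. The same gap between experiments was present in solvent cells, with standard deviations of 0.386 and 0.169.

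Th1-associated mediators had a median difference of 0.42, with 14 of 17 tested members above 0 and none called. By experiment the median was 0.8 and 0.01, and in solvent cells it was 0.61. Il12b, which encodes the p40 chain of IL-12, stood at 14.54 and 13.62 against 10.88 and 12.23. Both CpG arrays are above both TNF arrays, and the difference was 2.52 ± 0.59 (SE; limma adjusted p = 0.129), 3.66 in experiment 1 and 1.39 in experiment 2. In solvent cells it was 2.53, and the departure was −0.01 (95% interval −1.89 to 1.88). Il12a, the p35 subunit of IL-12, stood at 7.54 and 8 against 7.22 and 8.33, a difference of −0.01 whose sign differs between the experiments. Cxcl9 and Cxcl11, chemokines for Th1 cells, differed by 1.74 and 2, with 3 and 3.75 in experiment 1 and 0.49 and 0.25 in experiment 2, and were not called.

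Th2-associated mediators had a median of 0.02, with 13 of 23 above 0 and 10 below, and none was called. Ccl17 and Ccl22, which attract Th2 cells through CCR4, differed by 0.02 ± 0.1 (SE) and −0.1 ± 0.18 (SE). Both stood between 14.63 and 15 on all 4 arrays, near the top of the scale, where an array has little room to show a difference. Tnfsf4, which encodes OX40 ligand, differed by 0.22, the Notch ligands Jag1 and Jag2 by −0.18 and −0.02, and Dll4, a Notch ligand tied to Th1 responses, by 0.46. Jag1, Tnfsf4 and Dll4 had opposite signs in the 2 experiments, for example 0.39 and −0.76 for Jag1.

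Inflammatory cytokines had a median of 0.38, with 18 of 20 above 0 and none called, 0.77 in experiment 1 and 0.02 in experiment 2. Il6, a cytokine of acute inflammation, stood at 13.85 and 12.65 against 10.88 and 12.33, a difference of 1.65 ± 0.7 (SE; limma adjusted p = 0.377). Tnf itself stood at 13 and 10.57 against 11.4 and 10.57, so the groups differ in experiment 1 and are level in experiment 2. Il10, a suppressive cytokine, differed by 0.63 in experiment 1 and 0.01 in experiment 2. The list of IL-1 family and inflammasome genes had a median of 0.39, but 0.69 in experiment 1 and −0.05 in experiment 2, with 15 of 16 means above 0 and none called. Il18 in it stood at 11.27 and 9.61 against 9.5 and 8.95, a difference of 1.22 ± 0.39 (SE; limma adjusted p = 0.252). Ptgs2, the inducible cyclooxygenase, stood at 12.73 and 11.56 against 9.21 and 11.46. Its unstimulated level differed between the experiments, 8.59 and 10.57 in solvent cells and 8.6 and 10.27 with CA074Me alone. The value of 9.21 is thus above the unstimulated level of its own experiment, and solvent with TNF stood at 9.24 there.

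NF-kB targets and feedback genes included 2 called members of 26, Nfkbiz and Zc3h12a, where 0.329% of all genes were called, and the list's median was 0.03. Neither was called when a gene's probe sets were averaged. Relb, an NF-kB subunit of dendritic cell maturation, stood at 11.94 and 11.72 against 12.2 and 12.2, a difference of −0.37 ± 0.07 (SE; limma adjusted p = 0.0834) where solvent cells differed by 0.08. Rela differed by −0.26 and Rel by 0.51, neither called. The negative regulators Tnfaip3 and Nfkbia differed by 0 and 0.02. Map3k8, a kinase of the pathway, differed by 0.72, more than Zc3h12a, but with an error of 0.25 it was not called (limma adjusted p = 0.294).

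Dendritic cell maturation genes had a median of 0.04, 0.25 in experiment 1 and −0.2 in experiment 2, with 17 of 29 above 0 and none called. The costimulatory genes Cd40, Cd80 and Cd86 had mean differences of 0.49, 0.57 and 0.67. For Cd40 this was 0.98 in experiment 1 and −0.01 in experiment 2, and for Cd80 it was 0.87 and 0.26. Cd86 stood at 12.5 and 13.18 against 11.43 and 12.92, so its groups overlap across experiments while the CpG array is the higher within each. Genes of MHC class II presentation had a median of −0.06, with 4 of 17 above 0 and none called, beside −0.05 and 34.9% above 0 for all genes. Ifi30, the lysosomal thiol reductase that unfolds antigens, stood at 12.14 and 12.83 against 13.5 and 13.49, a difference of −1.01 ± 0.24 (SE; limma adjusted p = 0.132) that was −0.97 in solvent cells.

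For 22 tested genes of cathepsins and cathepsin inhibitors the median difference was −0.04, and none was called. The mRNAs of the inhibitors' own targets differed little: Ctsb, cathepsin B, stood at 13.69 and 13.41 against 13.8 and 13.44, and Ctsl, cathepsin L, at 13.41 and 13.7 against 13.35 and 13.68. The differences were −0.07 ± 0.08 (SE) and 0.04 ± 0.09 (SE), each smaller than its error. Ctss, the cathepsin that trims the invariant chain, differed by 0.01 ± 0.07 (SE). Ctsh had the largest difference of the family, 13.1 and 13.28 against 13.62 and 13.65, or −0.44 ± 0.1 (SE; limma adjusted p = 0.132). An inhibitor acts on the enzyme and not on its mRNA, so these levels carry no check of the treatment.

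None of the receptors of the 2 stimuli was called. Tlr9, the CpG receptor, stood at 7.78 and 7.62 against 7.76 and 7.84, close to the overall median, and differed by −0.1 ± 0.07 (SE). Tnfrsf1a and Tnfrsf1b, the TNF receptors, differed by 0.06 ± 0.11 (SE) and −0.11 ± 0.13 (SE). Tlr3, a receptor for double-stranded RNA that is itself interferon-induced, stood at 10.03 and 8.21 against 7.98 and 7.81, a difference of 1.22 ± 0.54 (SE; limma adjusted p = 0.388).

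**Figure D5:**
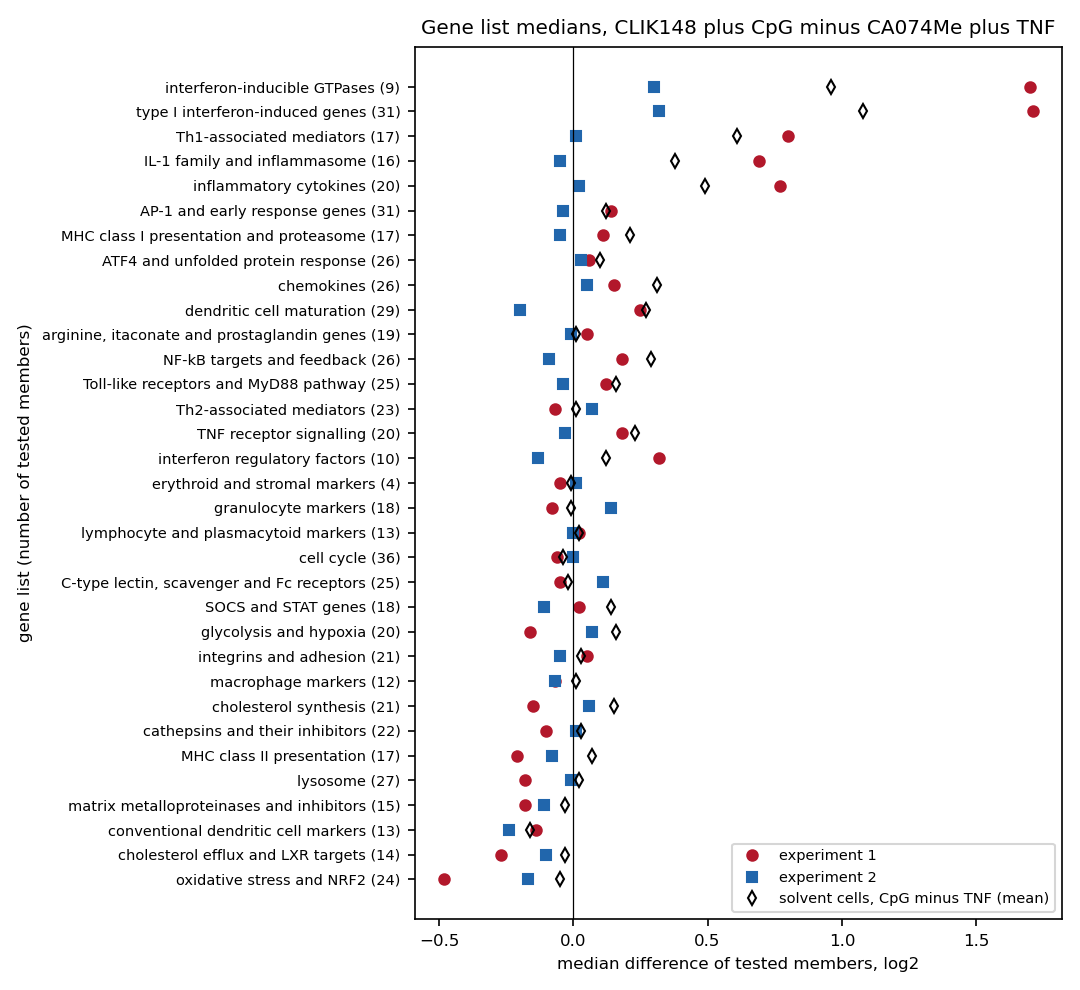
The median difference (x axis, log2) of the tested members of 33 gene lists (y axis, number of tested members in parentheses) in experiment 1 (circles), in experiment 2 (squares) and as the mean CpG minus TNF difference in solvent cells (diamonds). Interferon lists stand at 1.7 and 1.71 in experiment 1 and at 0.3 and 0.32 in experiment 2, and the NRF2 list is lowest in experiment 1 at −0.48.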

How the data were processed

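The authors made the deposited log2 values with RMA in R 3.0.1, per the submitters' processing notes. RMA corrects background, equalises the distributions of arrays and summarises the probes of each probe set, so a difference shared by most genes would be removed. Its settings were not given in the sources used here. No scanner files were used. The table holds 45101 probe sets on 14 arrays, and 0 other columns of sample values were left out. Of the probe sets, 34945 name 1 gene, 932 several and 9160 none, with 64 controls, and 34741 of the first kind matched a RefSeq gene. Each of 18193 genes was represented by its probe set with the highest mean, and the 12172 genes that exceeded a level of 7.52, the median of the table, on 2 or more arrays were tested.

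All 14 arrays entered 1 limma model (version 3.58.1, R 4.3.3) with 7 groups and a term for the experiment, the block, which left 6 residual degrees of freedom. Contrasts were tested by 2-sided moderated tests with Benjamini-Hochberg adjustment over the 12172 genes and a threshold of 0.05. Arrays with the same replicate number were paired because the design text describes 2 independent runs of all conditions. Deviations of same-numbered arrays correlated at 0.455 to 0.935 over the 21 pairs of groups and at 0.638 for the groups compared. Whether the arrays of a group came from separate mice is not given, so p-values speak for these cultures only. The block takes out what all groups of an experiment share. The p-values therefore measure how unevenly group differences repeated between the 2 experiments, pooled over the 7 groups. The 95% interval of a difference had a median half-width of 0.203 (log2), and the number of arrays limits this precision. On simulated data for the main comparison (12172 genes), the fit recovered 97% of added changes of 1 log2 unit and 63% of those of 0.5, with 13 false calls. In the simulation a gene's noise was alike in all groups and its added change equal in both experiments. The real differences were larger in experiment 1, so these figures do not give the recovery or the false calls of the data.

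The arrays were grouped by their labels, while the choice of this comparison, the lists and the genes always named was made with earlier results of these data known, so no list supports a conclusion by itself. Genes named were the 15 largest in each direction among called genes without overlap, the largest 2 or 3 of each list, the 5 smallest p values in each direction of each departure test, and a set of cathepsin, cytokine and receptor genes. Other called genes, Gsr and further members of the NRF2, NF-kB and interferon lists were named after their values were seen. Alternatives covered the block, the samples fitted, the filter, scaling, probe set choice, variance prior, array weights and leaving out each array.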

Additional observations from a re-analysis of the deposited data

How the results depend on the processing

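With no replicate block, the pairing by experiment being dropped, 1 gene was called between CLIK148 with CpG and CA074Me with TNF (Siah2) and 1 between solvent with CpG and solvent with TNF, instead of 40 and 53. Fitting only the groups compared gave 0 for both and 168 for the unstimulated inhibitors (124 higher with CLIK148), instead of 0. Scaling to Actb, Hprt, Rpl13a and Tbp gave 14 (5 higher, 9 lower) and 9. For the solvent cells, averaging a gene's probe sets gave 21, array weights gave 2, and cyclic loess gave 66 (41 higher, 25 lower, against 42 and 11). Array weights gave 1 gene (Stap1) for the departure from the unstimulated difference, instead of 0. Leaving out 1 array at a time gave 0 to 8 genes in the main comparison: 8 without the CLIK148 with CpG array of experiment 2 (Emp2, Gpr31b, Nfkbiz, Ptchd1, Siah2, St8sia6, Stap1 and Zc3h12a) and 0 without any of the other 3. In solvent cells it gave 1 to 1211, the highest (527 higher, 684 lower) without the CpG array of experiment 2. The cause of these shifts was not tested. The departure from the solvent difference gave 0 genes in every alternative, with 117 at an unadjusted p under 0.05 without the block. All 40 called genes kept their direction under all 14 alternatives. The alternatives refit the same arrays, and these genes already had the same sign in both experiments, so this is not a separate check. Of the 40 genes, 10 stayed called under each of the 8 alternatives that kept all arrays and the block: Gpr31b, Stap1, Siah2, Ly9, Dnmt3a, Blvrb, Stap2, Emp2, Egr2 and Cass4. Reference-gene scaling kept 14 of the 40, all single-gene probe sets 26, averaged probe sets 30, array weights 30, cyclic loess 32 and the trended prior 34. Of the 73 named genes that were not called, none became called. The median difference of all genes moved by at most 0.04 (log2) under another scaling.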
